A study of Mus musculus with 4 samples.

Results

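The genes described here are 9 regulators of second heart field progenitors, measured in mouse hearts at embryonic day 9.5 by 2-colour Agilent expression arrays. They are Isl1, Fgf8, Fgf10, Six2, Eya1, Osr1, Foxc1, Foxc2 and Prdm1. Every non-control probe that carries 1 of these gene names in the array's annotation was taken, which gave 13 of 39429 probes. A probe was tested if the scanner software called it well above background in every mutant channel or in every control channel. Of the 13 probes, 10 met this, and all 9 genes kept at least 1. The array names 30199 genes in all.

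The mutant embryos were labelled Nkx2.5Cre; Hdac3f/f and the controls were Hdac3f/f littermates, both on a mixed CD1/B6/129 background. Both groups therefore carried the floxed allele of Hdac3, a class I histone deacetylase, and no Cre is stated for the controls, so deletion of Hdac3 and presence of the Cre cannot be told apart. The Cre is named for Nkx2-5, a gene of cardiac progenitors and myocardium. Each array compared RNA from a pool of 3 microdissected mutant hearts with a pool of 3 control hearts, giving n = 4 pairs of pools. For replicates 2 to 4 a free-text label speaks of embryonic stem cells, against their titles, sources and tissue labels, which name hearts. All 15 markers of differentiated myocardium that were checked were detected in both channels of each array.

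The second heart field is a pool of mesodermal progenitors in the pharyngeal region, next to the heart tube, that adds cells to its arterial and venous poles. Isl1 marks these cells, Fgf8 and Fgf10 are secreted signals made in them, and the homeodomain factor Six2, its class partner Eya1, the zinc finger factor Osr1, the forkhead factors Foxc1 and Foxc2 and the zinc finger repressor Prdm1 are used in subsets of them. Many of these genes are switched down as progenitors enter the heart tube and differentiate. RNA of a whole heart cannot tell fewer progenitors from less transcript per progenitor.

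All ratios are log2 values of mutant over control from the authors' normalized table, so 0 means equal signal. By the labels, Cy5 held the mutant RNA on every array. Over 5751 bright probes, however, the table's columns followed the Cy5 to Cy3 ratio on array 1 (r = 0.921) and array 2 (r = 0.925), whereas over 5750 bright probes they had the opposite sign on array 3 (r = -0.991) and array 4 (r = -0.939). The direction given here follows the column names, is likely rather than settled. For each member tested, each measured gene named from a list and each list, a value with arrays 3 and 4 turned, called as labelled, is given beside it. A channel had 66.6% to 71.2% of its probes well above background. Hdac3, read by 1 probe whose place relative to the deleted exons was not analysed here, had ratios of -0.22, -0.50, -0.52 and -1.15. Its mean was -0.60 ± 0.39 (SD, n = 4; limma adjusted p = 0.579), and 0.24 as labelled. Precision is limited by having 4 arrays, and an exact sign test on 4 arrays cannot give a two-sided p below 0.125.

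The comparison of mutant and control pools asked whether these progenitor genes differ when Hdac3 is targeted in the heart. No member passed the test, so none is called higher or lower. At an adjusted p below 0.05 (limma, a linear model that pools variance across probes, with Benjamini-Hochberg adjustment over 25484 probes) 0 of 10 member probes were called, as was 0% of all probes in either direction, and the members' adjusted p-values ran from 0.579 to 0.988. At an unadjusted p below 0.05, 2 of 10 member probes were higher, those of Osr1 and Six2, against 3.65% of all probes, and 0 were lower, against 4.88%. As labelled neither of these was among them: 1 of 10 was higher, that of Eya1, against 6.89% of all probes, and 0 were lower, against 6.85%. With 10 probes, these shares are coarse. The means were above 0 for 8 of 10 probes, against 51.9% of all probes. Read as labelled they were above 0 for 6 of 10, against 50% of all probes. With each gene represented by its brightest probe, 7 of 9 genes were above 0 and the median was 0.18, beside a median of 0.0063 over all probes tested. The members' median was 0.108 without replicate 2, and as labelled it was 0.059, with 6 of 9 genes above 0.

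**Figure D1:**
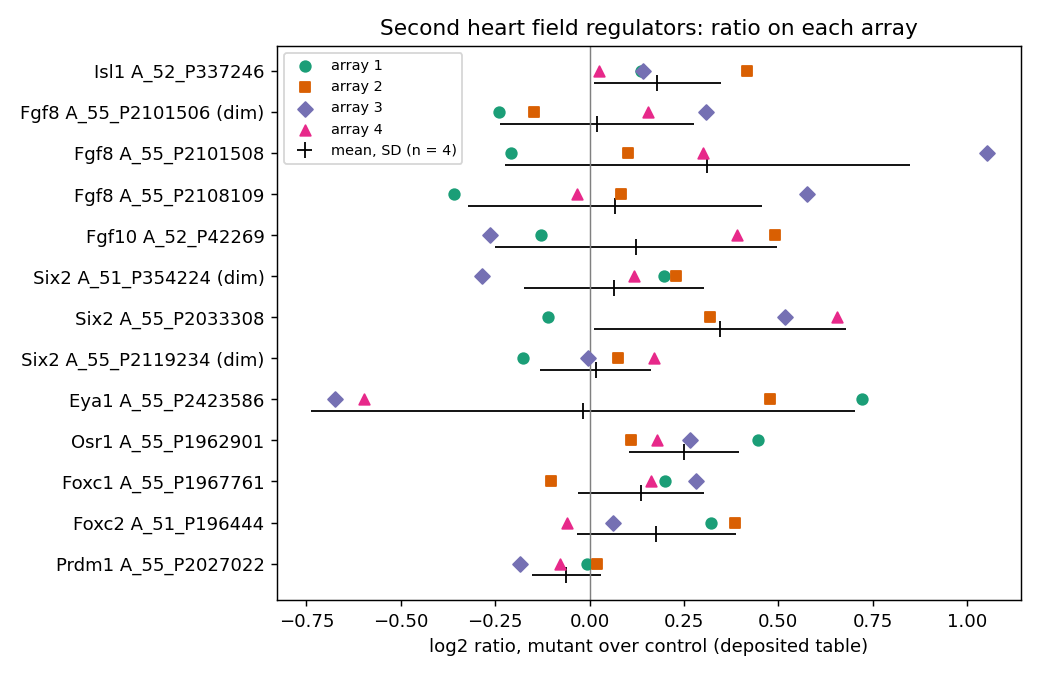
Log2 ratio of mutant over control (horizontal axis) for all 13 member probes, 1 symbol per array, with the mean and SD of the 4 arrays as a black bar under each row; rows marked dim did not pass the filter on background. In the direction of the authors' columns, the Osr1 and Isl1 points lie to the right of 0 on every array, whereas the Eya1 points split into arrays 1 and 2 on the right and arrays 3 and 4 on the left.

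Isl1, the LIM homeodomain factor that defines the second heart field, was read by probe A_52_P337246 (mm9 chr13:117088774-117088833, minus strand). Its ratios were 0.14, 0.42, 0.14 and 0.024 on arrays 1 to 4. All 4 lay above 0, with array 2 highest and array 4 closest to 0. Only Isl1 and Osr1 of the 10 probes tested did so on every array, against 9.63% of all probes, and 0 of 10 were below 0 on every array, against 10.2%. The mean for Isl1 was 0.18 ± 0.17 (SD, n = 4; 95% interval -0.036 to 0.40; limma adjusted p = 0.601), a linear ratio of 1.13. It was 0.101 without replicate 2 and 0.097 with the arrays read as labelled.

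The Isl1 probe was printed in 10 spots per array, which shows how far spots of 1 array differ. These spots share the labelled RNA and the hybridisation, so their spread leaves out errors of those steps. The SD between spots was 0.105, 0.060, 0.074 and 0.294 on arrays 1 to 4. The wide spread on array 4 came with 1 spot at -0.797, while 9 of 10 spots there were above 0. The spot median on that array was 0.117 in place of the mean of 0.024, and with spot medians on all arrays, a setting chosen after seeing the data, the Isl1 mean was 0.21. On array 2, which had the highest mean, all 10 spots lay between 0.34 and 0.55, while the highest spot was 0.386 on array 1, 0.211 on array 3 and 0.176 on array 4. Channel levels, as log2 normalised intensity, ran from 8.85 to 9.42 in the mutant pools and from 8.76 to 9.29 in the control pools. These ranges overlapped, and both channels were brighter on arrays 3 and 4 than on array 1.

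The start of Isl1 is shown because it is the gene by which the progenitors are recognised, with 3 others that held a match to a searched motif. Of the 9 members, 5 had an entry in the RefSeq promoter table (GRCm38.p6), Isl1, Fgf10, Six2, Foxc1 and Prdm1, and the 250 bases before the listed start of each were searched on both strands. Capitals mark a match, and each sequence reads 5′ to 3′ on the gene's strand.
Isl1 (chr13:116309689-116309938, minus strand): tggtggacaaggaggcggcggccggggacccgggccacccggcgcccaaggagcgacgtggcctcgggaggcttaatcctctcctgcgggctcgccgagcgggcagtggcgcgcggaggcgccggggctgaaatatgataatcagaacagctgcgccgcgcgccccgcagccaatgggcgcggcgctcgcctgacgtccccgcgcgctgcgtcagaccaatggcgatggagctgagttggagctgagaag
Fgf10 (chr13:118714449-118714698, plus strand): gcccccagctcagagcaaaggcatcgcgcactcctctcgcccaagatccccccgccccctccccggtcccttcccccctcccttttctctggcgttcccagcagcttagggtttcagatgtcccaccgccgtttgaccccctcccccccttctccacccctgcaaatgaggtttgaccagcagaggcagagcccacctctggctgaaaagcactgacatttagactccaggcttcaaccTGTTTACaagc
Six2 (chr17:85688255-85688504, minus strand): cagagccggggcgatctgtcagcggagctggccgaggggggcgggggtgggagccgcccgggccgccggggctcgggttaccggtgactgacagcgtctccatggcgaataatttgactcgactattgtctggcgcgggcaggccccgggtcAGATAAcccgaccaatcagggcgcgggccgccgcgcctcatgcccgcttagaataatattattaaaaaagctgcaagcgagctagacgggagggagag
Prdm1 (chr10:44458749-44458998, minus strand): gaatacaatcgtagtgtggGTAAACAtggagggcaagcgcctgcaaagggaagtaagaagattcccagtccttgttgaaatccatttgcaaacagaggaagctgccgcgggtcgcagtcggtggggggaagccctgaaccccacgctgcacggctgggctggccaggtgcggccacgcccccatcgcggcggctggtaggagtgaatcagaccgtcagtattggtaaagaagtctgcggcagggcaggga

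The forkhead letters GTAAACA were found before Prdm1 and, on the opposite strand, before Fgf10, from 11 to 5 bases ahead of its listed start. They occur in 3.17% of the 32851 windows of this length in the table. The GATA letters AGATAA were found once, from 98 to 93 bases before the Six2 start, and occur in 9.99% of windows. The T-box letters AGGTGTG (5.10% of windows), the homeodomain letters TAATTA (4.84%) and the NK2 letters CACTTAA (2.10%) were in 0 of the 5 member windows. All 5 windows were rich in G and C, at 59.2% to 71.2% against a median of 52.4% over the table. No searched letters overlapped each other, and a match describes only the letters.

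Osr1, a zinc finger factor of the posterior second heart field and of the atrial septum progenitors, had the smallest p of the members. Its probe A_55_P1962901 (mm9 chr12:9587390-9587449, plus strand) read 0.45, 0.11, 0.27 and 0.18. All 4 arrays were above 0, and the lowest was array 2, which was the highest for Isl1. The mean was 0.25 ± 0.15 (SD, n = 4; 95% interval 0.046 to 0.455; limma adjusted p = 0.579), a ratio of 1.19. The levels were 8.82, 8.58, 8.68 and 8.55 in the mutant pools and 8.48, 8.44, 8.53 and 8.38 in the control pools, so the ranges did not overlap. Among the 10 member probes this held for Osr1 and Six2, with the mutant higher, against 1.23% of all probes. It held for 0 probes with the mutant lower, against 1.31%. These levels came from the scanner intensities, and Six2 was dim. On array 1 its levels had the mutant higher, where the authors' ratio was -0.11. As labelled, the levels on arrays 3 and 4 change places, and the ranges of Osr1 and of Six2 overlapped. The 1 member probe without overlap was then that of Eya1, with the mutant higher, against 3.59% of all probes, and 0 had the mutant lower, against 4.31%. As labelled, the Osr1 mean was 0.027.

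Six2, a homeodomain factor of outflow tract progenitors that is best known for maintaining nephron progenitors, had 3 probes. Of these, A_55_P2033308 (mm9 chr17:86083634-86083693, minus strand) passed the filter and read -0.11, 0.32, 0.52 and 0.66. Array 1 lay below 0 and the other 3 above it. The mean of 0.35 ± 0.33 (SD, n = 4; 95% interval 0.024 to 0.667; limma adjusted p = 0.579) was the farthest from 0 among the members, and it was -0.241 with the arrays read as labelled. Signal was only 1.59 to 5.51 times the local background across channels. The channel levels were 7.20, 7.13, 7.24 and 7.34 in the mutant pools against 7.04, 7.01, 7.00 and 6.97 in the control pools. On array 1 the levels from the scanner intensities thus had the mutant higher, by 0.167, where the authors' table had -0.11. The Six2 mean was 0.222 with scanner intensities, 0.635 with the scanner software's own log ratio and 0.123 with array weights.

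Eya1, a transcriptional coactivator and phosphatase that acts with Six2 and its relatives, gave the most divergent readings of the 9 genes. Its probe A_55_P2423586 (mm9 chr1:14159982-14160041, minus strand) read 0.72, 0.48, -0.67 and -0.60. Arrays 1 and 2 were well above 0 and arrays 3 and 4 well below it, so the mean was -0.017 ± 0.72 (SD, n = 4; 95% interval -0.635 to 0.601; limma adjusted p = 0.988). Leaving out 1 array at a time gave means from -0.264 to 0.201. In terms of dye, Cy5 exceeded Cy3 on every array, and read as labelled the mean was 0.62 ± 0.11 (SD, n = 4; 95% interval 0.444 to 0.79; limma adjusted p = 0.0505). That value just missed the threshold, which 0.0471% of all probes passed in that direction under the labels' reading. Eya1 was also the only member probe of 10 that was above 0 on all 4 arrays as labelled, against 12.6% of all probes. In a fit with a dye term beside the mutant term, the dye term of Eya1 was 0.62 (limma adjusted p = 0.0677). By construction this term equals the mean as labelled, so it is no separate support. The signal was 225 to 642 times the local background, and was well above background in both channels of each array. The mutant level of Eya1 thus turns on which RNA carried Cy5 on arrays 3 and 4.

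**Figure D2:**
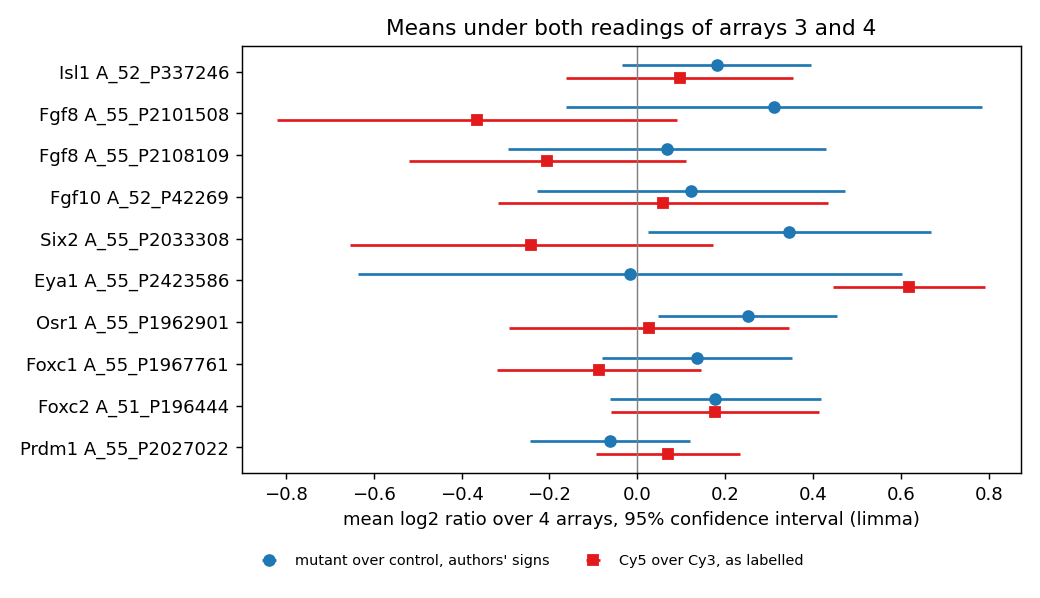
Mean log2 ratio over 4 arrays with its 95% confidence interval from limma for the 10 probes past the filter, with arrays 3 and 4 in the direction of the authors' columns (blue circles) and with every array as Cy5 over Cy3 as labelled (red squares). Eya1 moves from -0.017 to 0.62, Six2 from 0.35 to -0.241 and the Fgf8 probe A_55_P2101508 from 0.31 to -0.364, while Foxc2 stays near 0.18.

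The forkhead genes Foxc1 and Foxc2, closely related factors with overlapping roles in the outflow tract and pharyngeal arch vessels, were similar in size of ratio but not in pattern over arrays. Foxc1 (probe A_55_P1967761, mm9 chr13:31902423-31902482, plus strand) read 0.20, -0.10, 0.28 and 0.16. It was below 0 on array 2 only. The mean was 0.14 ± 0.17 (SD, n = 4; limma adjusted p = 0.648), with 0.216 without replicate 2 and 0.087 without replicate 3. Foxc2 (probe A_51_P196444, mm9 chr8:123642693-123642752, plus strand) read 0.32, 0.39, 0.061 and -0.059. Its arrays 1 and 2 were the high ones, and array 4 was below 0. The mean was 0.18 ± 0.21 (SD, n = 4; limma adjusted p = 0.617), with 0.108 without replicate 2. As labelled the Foxc1 mean was -0.087 and the Foxc2 mean 0.176, and with array weights the Foxc2 mean was 0.303. The Foxc2 levels in the mutant pools were close together, from 11.12 to 11.21, while those in the control pools ran from 10.75 to 11.26 and enclosed them.

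Prdm1, which encodes the repressor Blimp-1 and is used in pharyngeal and outflow tract progenitors, varied least between arrays. Its probe A_55_P2027022 (mm9 chr10:44157089-44157148, minus strand) read -0.0060, 0.019, -0.185 and -0.077. Arrays 1 and 2 were at about 0 and arrays 3 and 4 below it. The mean was -0.062 ± 0.091 (SD, n = 4; 95% interval -0.244 to 0.12; limma adjusted p = 0.797), the smallest SD of the 10 probes. It was -0.0213 without replicate 3, -0.0107 with array weights and 0.0688 as labelled.

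**Figure D3:**
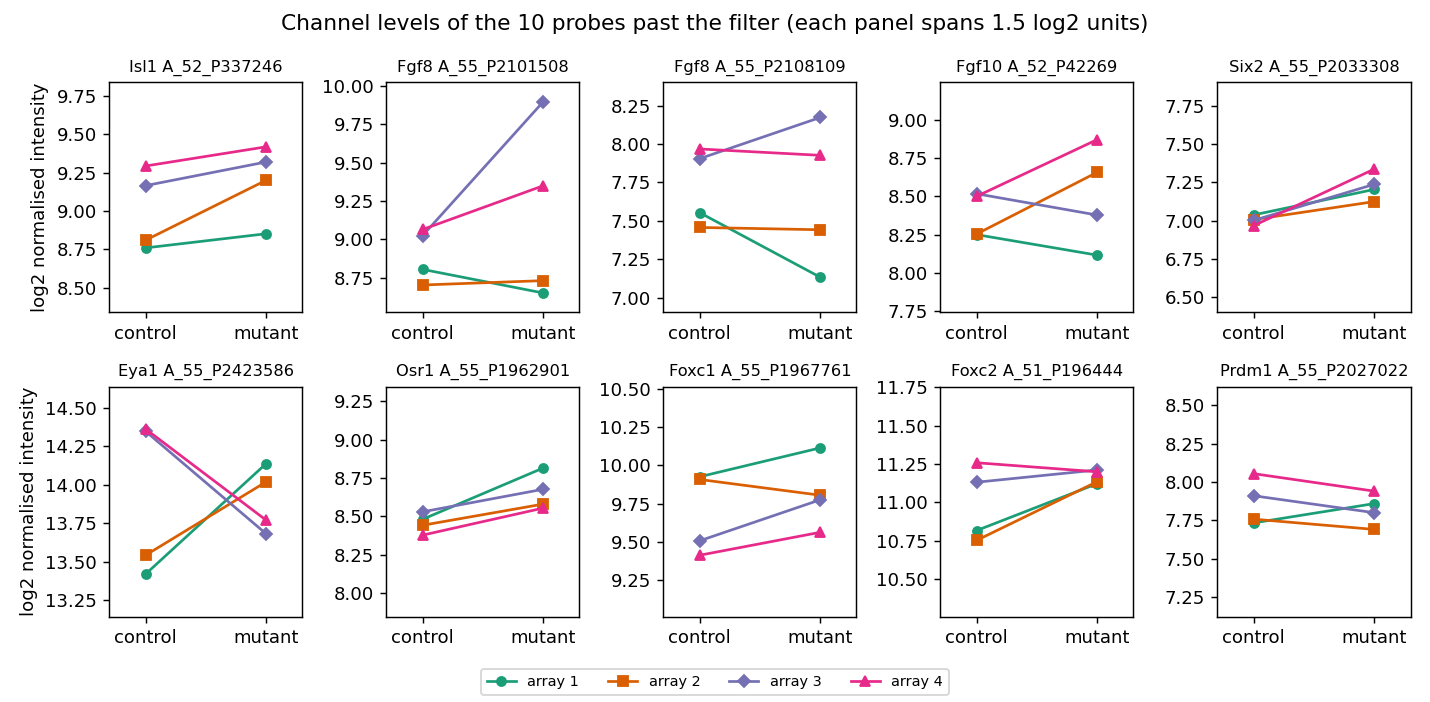
Channel levels of the 10 probes past the filter as log2 normalised intensity (vertical axis), with control on the left and mutant on the right of each panel and 1 line per array. In the direction of the authors' columns, for Osr1 and Six2 every mutant point lies above every control point. The Eya1 lines cross between arrays 1 and 2 and arrays 3 and 4. Six2 is dim, and its array 1 line rises where the authors' ratio was -0.11.

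Fgf8, a secreted ligand that drives proliferation and survival of the anterior second heart field, had 2 probes past the filter, which share a transcript and are not replicates. The first, A_55_P2101508 (mm9 chr19:45811355-45811414, minus strand), read -0.21, 0.10, 1.05 and 0.30. The other, A_55_P2108109 (mm9 chr19:45811668-45811727, minus strand), read -0.36, 0.084, 0.58 and -0.032. Both had array 1 lowest and array 3 highest, but they differed in sign on array 4. Their means were 0.31 ± 0.54 (SD, n = 4; limma adjusted p = 0.641) and 0.067 ± 0.39 (SD, n = 4; limma adjusted p = 0.896). Both means rested on array 3. Without replicate 3 the means were 0.0647 and -0.103, and as labelled they were -0.364 and -0.205. Without replicate 1 they were 0.485 and 0.210. The 95% intervals were -0.161 to 0.784 and -0.294 to 0.428, and as labelled -0.819 to 0.090 and -0.520 to 0.110. All 4 intervals include 0 and values on both sides of it.

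Fgf10, the ligand by which the anterior second heart field was first traced, differed more between arrays than between the spots of an array. Its probe A_52_P42269 (mm9 chr13:119580365-119580424, plus strand), also printed 10 times, read -0.13, 0.49, -0.26 and 0.39. Arrays 2 and 4 were high and arrays 1 and 3 low. On arrays 2 and 4 all 10 spots were above 0, on array 3, 0 of 10 were, and on array 1, 1 of 10 was. The spot SD ran from 0.041 to 0.119, against an SD of 0.37 between arrays. The mean was 0.12 ± 0.37 (SD, n = 4; 95% interval -0.227 to 0.473; limma adjusted p = 0.793). It was 0.00033 without replicate 2, 0.033 without replicate 4, 0.251 without replicate 3 and 0.206 without replicate 1, and 0.059 as labelled.

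**Figure D4:**
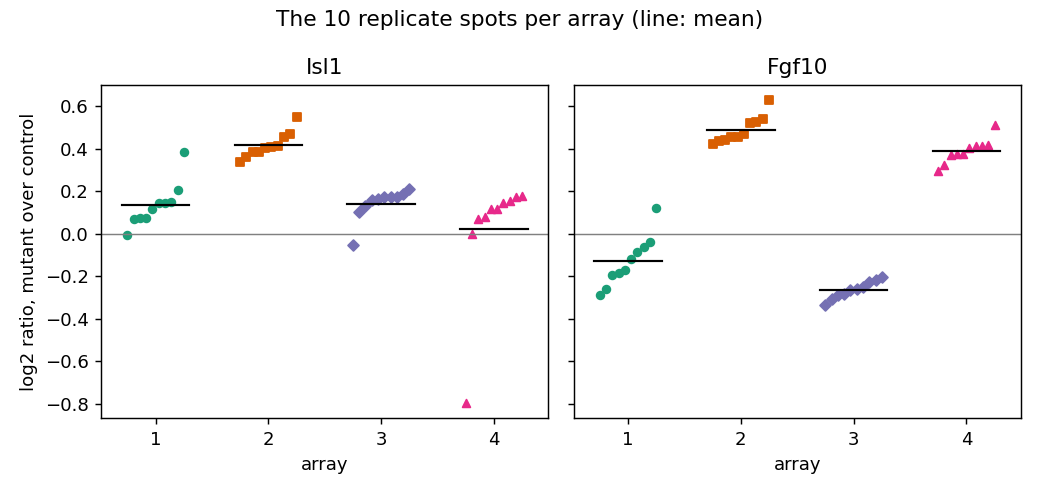
Log2 ratio of mutant over control for each of the 10 replicate spots of the Isl1 and Fgf10 probes on each array, with the spot mean as a line. Spots of 1 array lie close together apart from the Isl1 spot at -0.797 on array 4, and the Fgf10 arrays fall on both sides of 0.

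Genes that act with the members were taken as lists, with each gene at its brightest probe past the filter. The members and lists were chosen with earlier results of these data known, so the counts are descriptions. No gene of any list passed the test (limma, 0 at an adjusted p below 0.05, as for all probes). Of 24 other second heart field genes, 22 were measured, 13 with a mean above 0 and 9 below, with a median of 0.062, and as labelled 15 above and 7 below, with a median of 0.103. At an unadjusted p below 0.05, 4 of 22 were higher, against 3.65% of all probes, and 1 was lower, against 4.88%. With 22 genes these shares are coarse, and the counts as labelled are not given. Hoxa3, a Hox gene of the posterior pharyngeal arches, had a mean of 0.61 ± 0.23 (SD, n = 4; adjusted p = 0.579). Tbx1, the T-box factor of pharyngeal mesoderm upstream of Fgf8 and Fgf10, had a mean of 0.83 ± 0.50 (SD, n = 4; adjusted p = 0.579). As labelled these were 0.192 and -0.013.

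Of the 16 FGF receptors and response genes all were measured, 11 above 0 and 5 below, with a median of 0.15. As labelled they were 8 above and 8 below, with a median of -0.018. Etv5, an ETS factor induced by FGF signalling, had a mean of 0.37 ± 0.17 (SD, n = 4; limma adjusted p = 0.579) and was above 0 on all 4 arrays, but as labelled its mean was 0.0068. Dusp6, the phosphatase that limits ERK, read 0.197, 0.834 and 0.782 on arrays 2 to 4 and 0.00 on array 1. Its mean was 0.45, and -0.355 as labelled. Of 8 other FGF ligands 3 were measured, 1 above 0 and 2 below, also as labelled, with Fgf22 at 0.26 and Fgf7 at -0.094. As labelled these 2 were at -0.055 and 0.067. Of 10 relatives of Six2 and Eya1, 7 were measured, 3 above 0 and 4 below, with a median of -0.0028, and as labelled 5 above and 2 below, with a median of 0.163. Among these Eya4 read 0.050, 0.231, -0.575 and -0.280, and Six4 0.153, 0.363, -0.722 and -0.541. Both split between arrays 1 and 2 and arrays 3 and 4 in the same way as Eya1, and as labelled their means were 0.284 and 0.445. The relatives did not all do so. Six5 had the opposite split, at -0.092, -0.267, 0.252 and 0.243, and Eya3 had it in its signs, at -0.019, -0.048, 0.225 and 0.052. Of all probes, 12.6% had signs split as in Eya1 and 13.2% had the opposite split, so neither is particular to these genes. As labelled the Six5 mean went from 0.034 to -0.213 and the Eya3 mean from 0.052 to -0.086.

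The LIM factor partners and relatives of Isl1 were all measured, 7 of 10 above 0, with Lmo2 at 0.22 and Lmo1 at -0.22. As labelled 5 of 10 were above 0, with Lmo2 at -0.147 and Lmo1 at 0.215. Of the hedgehog pathway genes listed with Osr1, 7 of 9 were measured and 5 were above 0, with a median of 0.0013. There Gli1, a hedgehog target, was at 0.26 and Hhip, a hedgehog antagonist, at -0.12. As labelled all 7 were above 0, with a median of 0.118, Gli1 at 0.197 and Hhip at 0.337. Of 9 relatives of the Foxc genes 4 were measured, 3 above 0, with Foxa2 at 0.23 and Foxl1, a neighbour of Foxc2 on the chromosome, at 0.20. As labelled 2 were above 0, with Foxa2 at 0.070 and Foxl1 at 0.100. Of 14 Prdm genes 10 were measured, 3 above 0, with Prdm4 at -0.13 and Mecom at 0.11. As labelled 4 of 10 were above 0, with Prdm4 at 0.132 and Mecom at -0.058.

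Markers of tissues that also express the members, or that lie beside the heart, were measured in the same pools. Of 14 pharyngeal and foregut endoderm markers 5 were measured and all 5 were above 0, with a median of 0.19 (-0.044, 0.164, 0.352 and 0.231 on arrays 1 to 4). As labelled 1 of 5 was above 0 and the median was -0.066. Defining genes such as Shh, Pax1, Pax9 and Nkx2-1 did not pass the filter on background. The mean level of this list ran from 10.05 to 10.32 in the mutant and from 9.89 to 10.07 in the control pools. Of 10 pharyngeal muscle markers 4 were measured, 2 on either side of 0 and all 4 above it as labelled. Msc, Myf5 and Myod1 did not pass the filter. Mean levels of this list were 10.27 to 10.56 in the mutant and 10.27 to 10.55 in the control pools. Of 10 nephrogenic mesoderm markers, the tissue best known for Six2, Eya1 and Osr1, 6 were measured and 5 were above 0, with a median of 0.12. As labelled 2 of 6 were above 0, with a median of -0.060. Mean levels were 8.76 to 8.85 in the mutant and 8.74 to 8.84 in the control pools. Of 14 markers of neurons, cells that use Isl1, 9 were measured. Of these, 4 were above 0, with a median of -0.028, against 5 and 0.064 as labelled. Mnx1 did not pass the filter.

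The neural crest list had 8 of 11 markers measured, with a median of 0.043, and the liver bud list 5 of 10, with a median of 0.087. As labelled these medians were 0.073 and 0.229. The endothelial list had all 10 measured, 6 above 0, with a median of 0.17, and as labelled 5 above 0, with a median of -0.0079. The septum transversum and epicardium list had all 9 measured and 8 below 0, with a median of -0.17, and as labelled 6 below 0, with a median of -0.074. All 11 primitive erythroid genes had a mean below 0, where 51.9% of all probes had a mean above 0. Their median was -0.28, with -0.001, -0.635, -0.254 and -0.297 on arrays 1 to 4. As labelled 6 were above 0 and 5 below, with a median of 0.028. Mean levels were 12.53 to 13.29 in the mutant and 12.76 to 13.41 in the control pools. The myocardium list had 8 of 15 above 0 and a median of 0.041, and as labelled 13 of 15 and 0.199. The part that any of these tissues has in the members' ratios was not tested.

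**Figure D5:**
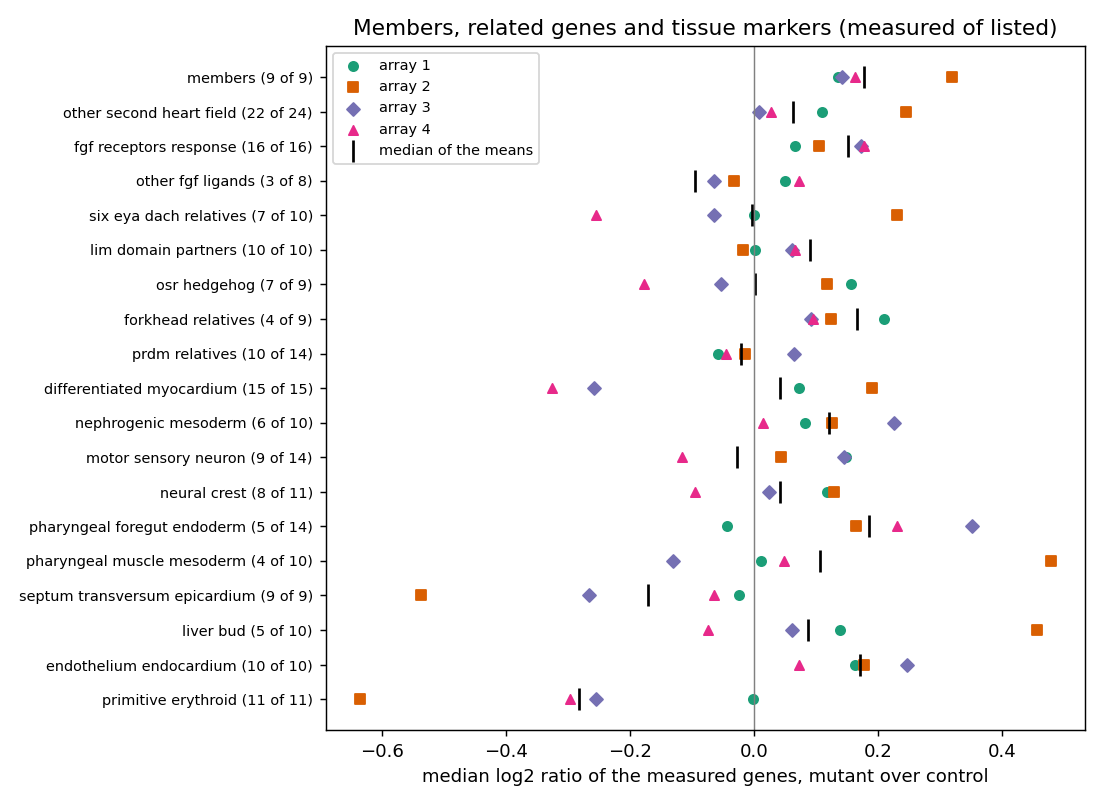
Median log2 ratio of mutant over control, in the direction of the authors' columns, for the members and each list of related genes or tissue markers, 1 symbol per array and a black bar for the median of the gene means; the numbers give measured of listed genes. The member medians lie at 0.14, 0.32, 0.14 and 0.16 on arrays 1 to 4, and the erythroid list lies lowest on array 2.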

How the data were processed

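The authors deposited a table of log2 ratios, its columns named for mutant and wild type. How these were normalized is not stated in the labels or headers. They also deposited scanner files, with mean and background intensity per dye and a log10 ratio of background-subtracted, dye-normalized signals, per the file headers (Agilent Feature Extraction 11.5.1.1; the submitters' processing notes name 8.5.1.1). Rows were matched by probe name and replicate spots averaged. In R 4.3.3 with limma 3.58.1, 25484 of 39429 non-control probes (well above background in all 4 mutant or all 4 control channels) were fitted (lmFit, eBayes), the mean ratio was compared with 0, and p-values were adjusted by Benjamini-Hochberg. Channel levels came from normexp (offset 50), loess and Aquantile, and the offset draws ratios of dim probes towards 0. Each ratio pairs 2 pools on 1 array, so the array is the block. The steps were tested on simulated data.

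The genes named were all members, Hdac3, the 2 genes of smallest p in each list of related genes, and the genes closest to Six2 over the arrays. Msc, Myf5, Myod1, Mnx1, Shh, Pax1, Pax9 and Nkx2-1 were named afterwards as examples of markers not measured, and Six5 and Eya3 as relatives that split over the arrays unlike Eya1. Symbols of 27508 probes came through accessions of a RefSeq table (GRCm38.p6). The members and lists were chosen with earlier results of these data known.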

Additional observations from a re-analysis of the deposited data

Results flagged for a closer look

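The median over the 9 members was 0.319 on array 2, against 0.136, 0.142 and 0.163 on arrays 1, 3 and 4. Its gap to the nearest array was 0.853 of the whole range, above Dixon's 95% critical value for 4 samples. Of 49 sets of 4 arrays looked at, 1 was above that value, where chance gives about 5%.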

How the results depend on the processing

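With arrays 3 and 4 turned to the labels' reading, the means became -0.364 and -0.205 for the Fgf8 probes A_55_P2101508 and A_55_P2108109, -0.241 for Six2, 0.617 for Eya1, -0.087 for Foxc1 and 0.0688 for Prdm1, and the median of the members 0.0586, while 12 probes were higher at an adjusted p below 0.05 and 1755 at an unadjusted p below 0.05. Array weights gave -0.00826 and -0.142 for the Fgf8 probes and 0.476 for Eya1. With them 3 probes were higher and 2 lower after adjustment, and 3104 and 3028 before it. The weights were 3.41, 2.17, 0.275 and 0.492 on arrays 1 to 4. That fit thus rested mainly on arrays 1 and 2, where the authors' columns followed Cy5 over Cy3. On those arrays mutant and dye cannot be told apart. For Fgf8 A_55_P2108109, scanner intensities gave -0.0523 with loess and -0.0071 with median centring, which gave 0.0963 for Eya1, moved the median of all probes to 0.0574, and left 394 probes lower at an unadjusted p below 0.05. A dye term gave 1707 higher and 2071 lower. With no replicate block (pools unpaired), 387 probes were higher and 404 lower at an unadjusted p below 0.05. That fit used levels from the scanner intensities. Its -0.0523 for Fgf8 A_55_P2108109 is therefore the loess value again, and unpairing itself cannot change a mean. Leaving out each replicate gave -0.103 to 0.210 for Fgf8 A_55_P2108109, -0.264 to 0.201 for Eya1 (0.201 without replicate 3, 0.176 without replicate 4), 0 to 4 probes higher after adjustment (4 without replicate 1), and 819 to 1235 lower before it. Of 254 alternative values of these results, 224 kept their direction and side of the threshold or, for counts and medians, stayed near the main value, and no member passed it under any setting run. The cause of these changes was not tested. Dropping the filter, requiring both channels above background or adding a dye term cannot change the mean of a tested probe. Part of the agreement in 224 of 254 values was therefore fixed in advance. Six2 had a low signal over background, 1.59 to 5.51 times.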

Other observations

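The member probes that did not pass the filter have values but no test. The Fgf8 probe A_55_P2101506 was not well above background in any channel and is listed at -0.24, -0.148, 0.309 and 0.155. The Six2 probe A_51_P354224, also not well above background in any channel, is listed at 0.198, 0.23, -0.285 and 0.117. The Six2 probe A_55_P2119234, designed on the transcript AK142139, was well above background in 1 mutant channel and 0 control channels, and is listed at -0.177, 0.075, -0.0030 and 0.171. All 3 lie on both sides of 0.

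The member farthest from 0 was Six2, probe A_55_P2033308. The genes whose 4 ratios lay closest to its own, by root mean square difference over the 4 arrays, were Sct, which encodes secretin (0.0594), Gramd1c (0.0662) and H2-Ab1, a class II histocompatibility gene (0.0714).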
